A study of Mus musculus with 816 samples.

Results

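The 9 genes of extracellular proteolysis were followed through every condition of a microglia stimulus panel and in microglia isolated from mice. They are the matrix metalloproteinases Mmp13, Mmp8, Mmp2, Mmp14 and Mmp12, the tissue inhibitors Timp1 and Timp2, and the metalloproteinases Adam8 and Adamts1. The 9 members were chosen by name, with earlier results of these data known. All 9 are listed in both tables, among 45581 genes in the cultures and 29858 in the mice. RNA was sequenced from the 3′ end of transcripts in wells of commercial primary microglia from neonatal mouse brain. These wells formed 98 groups by labelled stimulus, dose and time. RNA of CD11b-selected cells of the whole brain from 32 C57BL/6 mice was sequenced likewise. Untreated wells were sampled at 24 h (n = 40) and at 72 h (n = 25). In the LPS experiment, 2-month-old female mice received 2 mg/kg lipopolysaccharide (LPS) or PBS into the peritoneum and were sampled after 4 h (n = 4 each). In the aging experiment, males of 22 months (n = 13) and 2 months (n = 11) were compared. Their sample labels call them naive, but the column headers of the first series of libraries call its mice vehicle. Culture LPS was given at 0.0001 ug/ul, or at 0.00001 ug/ul in the groups called low LPS here. A single 72 h well, named as the higher dose but labelled 0.00001 ug/ul, was kept as its own group and entered no comparison. P3C is a synthetic bacterial lipopeptide, IC is poly(I:C), a mimic of viral double-stranded RNA, and PGE2 is the lipid mediator prostaglandin E2. The other stimuli named below were IFNa, IFNb and IFNg (interferons), GMCSF, TNFa, IL4, IL10, IL13 and TGFb (cytokines), and small molecules that are named where they appear.

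Matrix metalloproteinases are zinc enzymes that are made as inactive precursors and cut collagens, elastin, other matrix proteins and many cell surface and secreted proteins. Tissue inhibitors (TIMPs) bind the active enzymes, so that the balance of enzyme and inhibitor sets how much matrix is cut. ADAM proteins are membrane-anchored relatives that shed surface proteins, and ADAMTS proteins are secreted relatives, some of which cut proteoglycans. In the brain, microglia and infiltrating leukocytes are known sources of such enzymes during inflammation, where they are known for opening the blood-brain barrier.

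Mmp13, Mmp12 and Mmp8 lie within 296 kb of chromosome 9 in the mouse genome, and the other members are on chromosomes 8 (Mmp2), 14 (Mmp14), X (Timp1), 11 (Timp2), 7 (Adam8) and 16 (Adamts1). Mmp13 spans chr9:7272514-7283333, Mmp12 chr9:7344397-7360461 and Mmp8 chr9:7558429-7568486, all on the plus strand. The 250 bases before the annotated start are printed below for these 3 neighbours, which LPS at 24 h changed in unlike directions, and for Mmp14 and Timp1, which rose with LPS. For Mmp12, the second of its 2 annotated starts is shown. They are RefSeq sequences on build GRCm38.p6, written 5′ to 3′, and 8 of the 9 members had an entry. Capitals mark matches to AP-1 (TGANTCA) or to an interferon-stimulated response element (GAAA and GAAA with any 2 bases between), searched on both strands.
Mmp13, chr9:7272264-7272513, plus strand: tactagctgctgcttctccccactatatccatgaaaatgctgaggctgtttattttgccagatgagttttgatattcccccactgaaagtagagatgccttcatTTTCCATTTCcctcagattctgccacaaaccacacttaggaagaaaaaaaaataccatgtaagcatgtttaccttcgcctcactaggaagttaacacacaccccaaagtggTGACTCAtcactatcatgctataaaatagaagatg
Mmp12, chr9:7347124-7347373, plus strand: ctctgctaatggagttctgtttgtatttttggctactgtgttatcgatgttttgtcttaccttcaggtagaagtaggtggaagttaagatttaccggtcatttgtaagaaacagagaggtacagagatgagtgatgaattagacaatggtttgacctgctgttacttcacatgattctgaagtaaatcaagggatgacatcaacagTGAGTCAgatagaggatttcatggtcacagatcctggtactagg
Mmp8, chr9:7558179-7558428, plus strand: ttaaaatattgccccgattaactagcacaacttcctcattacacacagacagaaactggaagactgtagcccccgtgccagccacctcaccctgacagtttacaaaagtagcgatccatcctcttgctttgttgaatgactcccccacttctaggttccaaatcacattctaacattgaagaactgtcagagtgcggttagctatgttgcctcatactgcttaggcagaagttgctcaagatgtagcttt
Mmp14, chr14:54431348-54431597, plus strand: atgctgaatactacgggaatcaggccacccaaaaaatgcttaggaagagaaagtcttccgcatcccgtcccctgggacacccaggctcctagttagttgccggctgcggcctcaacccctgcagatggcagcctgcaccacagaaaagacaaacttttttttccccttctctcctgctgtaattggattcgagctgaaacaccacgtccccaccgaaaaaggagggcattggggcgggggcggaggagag
Timp1, chrX:20869916-20870165, plus strand: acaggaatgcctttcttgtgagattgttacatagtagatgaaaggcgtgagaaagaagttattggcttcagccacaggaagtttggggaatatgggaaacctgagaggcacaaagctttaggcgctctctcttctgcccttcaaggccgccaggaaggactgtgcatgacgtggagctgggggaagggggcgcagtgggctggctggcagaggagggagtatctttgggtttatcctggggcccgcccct

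The Mmp13 window held an AP-1 match 35 to 29 bases before the start and an interferon-element match on the opposite strand, 146 to 137 bases before it. The printed Mmp12 window, at the second start, held an AP-1 match 44 to 38 bases before that start. The window at the first Mmp12 start held no match. No other match to these motifs lay in the 9 windows of the members. Over all 32851 windows of this length in the table, 6.75% held AP-1 and 2.98% the interferon element. The letters of the CRE (TGACGTCA, 1.55% of windows), of a gamma-activated site (TTCNNNGAA, 7.02%) and of NF-kB (GGGA and CC with any 4 bases between, 17.6%) were in none of the 9 windows. No match overlapped another motif searched, and a match is only a match of letters.

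The values are CPM, the reads of a gene scaled to a fixed total per library, and depth was 1.00 to 38.2 M mapped reads per culture (median 4.67 M) and 2.36 to 7.78 M per mouse. In the shallowest culture 1 CPM is about 1 read, so the low levels of Mmp2, Timp1 and, at times, Mmp13 and Mmp8 rest on few reads. Microglial markers were present in the cultures: Csf1r, C1qa and Trem2 had medians of 3927, 1364 and 807 CPM in untreated wells at 24 h. Of the defining brain microglia genes, P2ry12 was at a median of 3.49 CPM and Sall1 at 0.411 CPM there, against 757 and 261 CPM in the PBS mice, a comparison of levels across 2 tables that were normalized separately. Each of the 10 culture plates held 1 of 3 lots of cells, and results were also computed with the plate in the model. Wells are not stated to come from separate animals, so the p-values below measure the spread between wells.

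In untreated wells Timp2, Adam8 and Mmp12 were detected in all wells, and the remaining 6 members were at 0 in some. At 24 h, Timp2 lay between 565 and 1486 CPM (median 879.7, n = 40) and Adam8 between 329 and 1809 CPM (median 726, n = 40). Adamts1 was between 13.9 and 75.8 CPM (median 35.6, n = 40) at that time and between 0 and 56.9 CPM (median 20.2, n = 25) at 72 h. Mmp13, Mmp8, Mmp14, Mmp2 and Timp1 had medians of 6.13, 4.79, 4.75, 3.44 and 1.03 CPM at 24 h, each at 0 in at least 1 of 40 wells. From 24 to 72 h without stimulus, Mmp2 was lower (median 0 CPM at 72 h, log2 difference -2.10, SE 0.35, limma adjusted p = 2.3e-07) and so was Adamts1 (log2 difference -1.31, SE 0.29, limma adjusted p = 0.00016), the only 2 of 9 members called between these times, where 7.32% of all genes were called (1.1% higher and 6.23% lower). With the plate in the model these differences were -0.30 and -2.06 and neither was called. Only 1 plate held wells of both times, and it held 4 wells of 24 h, so time, plate and lot cannot be told apart for most wells.

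A gene was called changed at a limma adjusted p under 0.05 and a difference of at least 1 in mean log2(CPM + 1), a scale on which changes of genes near 0 come out too small. Against untreated wells of the same time, 86 of 396 tests of a member at 24 h passed (32 higher and 54 lower), where 4.66% of the tests of all 16942 genes did (1.54% higher and 3.12% lower). At 72 h, 122 of 378 passed (50 higher and 72 lower), against 6.78% of all genes (2.98% higher and 3.8% lower). The comparisons of each time share their untreated wells, so these counts are not independent of each other. Because the members were chosen with earlier results known, the counts beside the shares of all genes are no test of an excess. Mmp12 was called in the most comparisons at 72 h (2 higher and 23 lower of 42), followed by Mmp13 (8 and 12) and Mmp14 (18 and 1). Adam8 was called in 2 of 44 comparisons at 24 h and 3 of 42 at 72 h. The median over all genes moved by more than 0.1 in several comparisons, by -0.14 for LPS at 24 h, -0.28 for P3C at 24 h, -0.20 for LPS at 72 h and -0.39 for LPS at 4 h, so a member whose difference is small and negative there moved with the other genes.

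**Figure D1:**
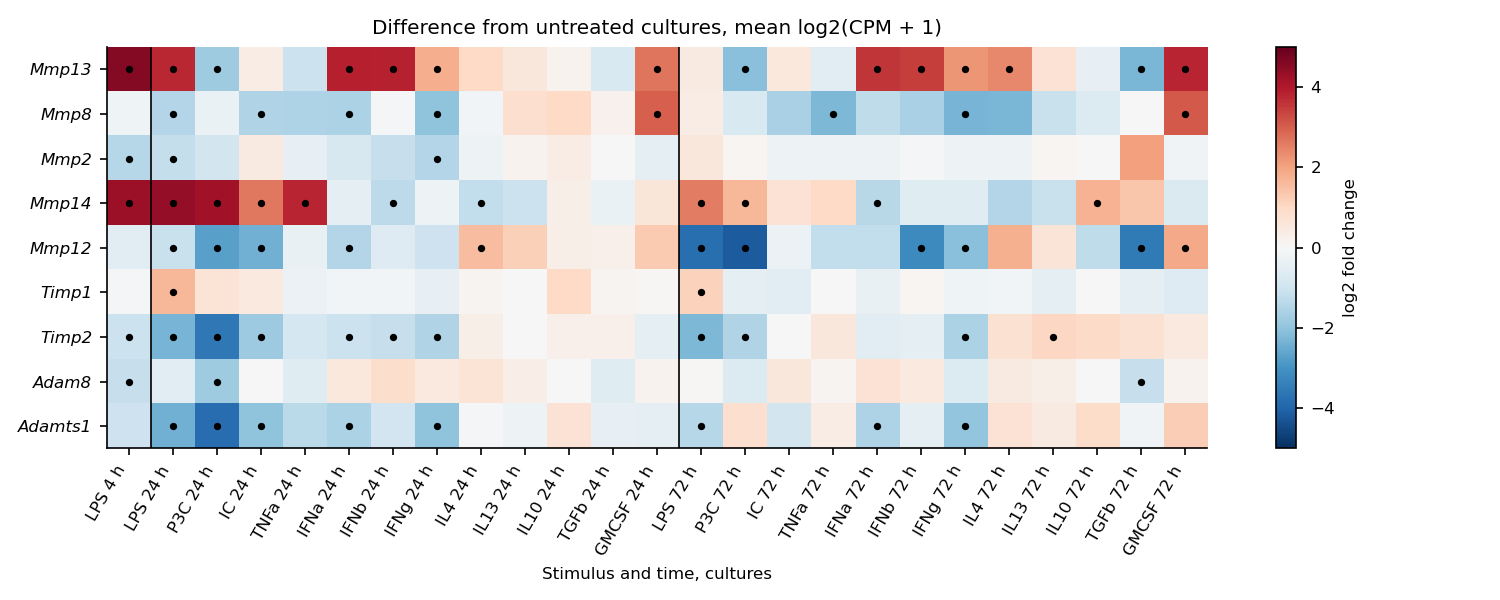
Difference in mean log2(CPM + 1) from untreated wells of the same time, or of 24 h for LPS at 4 h, for 9 members (rows) and 12 stimuli (columns); colours run from -5 (blue) to 5 (red) and a dot marks a call. At 24 h, Mmp14 is red under LPS, P3C, IC and TNFa, Mmp13 is red under LPS, the interferons and GMCSF, and Timp2, Mmp12 and Adamts1 are blue under LPS and P3C.

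LPS moved 8 of the 9 members at 24 h, where 16.2% of all genes were called (5.25% higher and 10.9% lower). Mmp13, Mmp14 and Timp1 rose, while Mmp8, Mmp2, Mmp12, Timp2 and Adamts1 fell. Adam8 was between 335 and 1039.9 CPM (median 520.0, n = 18) and was not called (log2 difference -0.53, SE 0.12, limma adjusted p = 8.4e-05). P3C moved 6 of 9, where 20.2% of all genes were called (3.22% higher and 16.9% lower): Mmp14 rose, and Mmp13, Mmp12, Timp2, Adam8 and Adamts1 fell. The sign of Mmp13 was thus opposite under these 2 bacterial stimuli, but its fall under P3C was not called with the plate in the model.

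Mmp13 is collagenase 3, which cuts fibrillar collagens. It was between 0 and 17.8 CPM (median 6.13, n = 40) in untreated wells at 24 h and between 41.1 and 235 CPM (median 75.5, n = 18) with LPS, with no overlap between the groups (log2 difference 3.78, SE 0.31, limma adjusted p = 1.7e-28). With P3C it was between 0 and 5.4 CPM (median 0.326, n = 6), and every LPS well lay above every P3C well (log2 difference 5.56, SE 0.52, limma adjusted p = 1.2e-21). The fall under P3C against untreated wells was -1.78, and with the plate in the model it was -0.86 and was not called. At 4 h, LPS wells were already between 111 and 204 CPM (median 160.4, n = 7). No untreated wells of 4 h exist, so the wells given the chemokines CCL7 or CCL2 for 4 h serve as a second control. Against CCL7 (between 0.884 and 15.9 CPM, median 5.96, n = 7) the groups did not overlap (log2 difference 4.49, SE 0.59, limma adjusted p = 8.5e-12), nor did they against CCL2 (log2 difference 5.06, SE 0.59, limma adjusted p = 9.8e-15).

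Among the comparisons of 4 h wells with untreated wells of 24 h, 16 of 81 member tests were called (9 higher and 7 lower), where 11.5% of all genes were (2.68% higher and 8.8% lower). Adding ATP to LPS brought Mmp13 at 4 h to between 5.36 and 64.7 CPM (median 23.2, n = 6), below every well of LPS alone (log2 difference -2.69, SE 0.62, limma adjusted p = 0.0018). By 72 h the LPS wells ranged between 0.362 and 70.9 CPM (median 10.6, n = 13), overlapping the untreated wells, which ranged between 0 and 40.9 CPM (median 6.47, n = 25). The LPS difference at 72 h was smaller than that at 24 h by 3.33 on the log2 scale (log2 difference -3.33, SE 0.49, limma adjusted p = 1.3e-08), and low LPS showed the same order (log2 difference -3.87, SE 0.61, limma adjusted p = 3e-07). Among the 25 stimuli given at both times, 20 of 225 member tests of such a difference between times were called (9 higher and 11 lower), where 3.26% of all genes were (1.67% higher and 1.59% lower).

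Type I interferons also raised Mmp13. IFNa wells at 24 h were between 16.5 and 252 CPM (median 122, n = 8) and IFNb wells between 40.2 and 241 CPM (median 63, n = 10). Against untreated wells the differences were log2 difference 3.90, SE 0.43, limma adjusted p = 1.7e-16 for IFNa and log2 difference 3.84, SE 0.39, limma adjusted p = 4.6e-19 for IFNb. All 10 IFNb wells lay above all untreated wells, and 1 of the IFNa wells, at 16.5 CPM, lay within their range. IFNg, the type II interferon, gave between 11.7 and 37.8 CPM (median 21.2, n = 9), a rise of 1.83 that was smaller than that of IFNb by 2.01 on the log2 scale with no overlap (log2 difference -2.01, SE 0.51, limma adjusted p = 0.0036). The difference from IFNa was of like size (log2 difference -2.07, SE 0.54, limma adjusted p = 0.0035). At 72 h the rises were 3.57 (IFNa, n = 7), 3.47 (IFNb, n = 4) and 2.22 (IFNg, n = 6), each called. Over the 7 direct comparisons of 1 stimulus with another, 8 of 63 member tests were called (5 higher and 3 lower), where 4.81% of all genes were (2.46% higher and 2.35% lower), and 5 of the 8 were Mmp13.

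With TNFa added to IFNg, the rise of Mmp13 was not seen. It was between 11.3 and 60.2 CPM (median 50.1, n = 6) with IFNg for 72 h and between 0 and 14.7 CPM (median 0.874, n = 8) with TNFa added (log2 difference -3.97, SE 0.60, limma adjusted p = 2.7e-08). All 8 wells of the mix lay below the median of IFNg alone. The highest of them, at 14.7 CPM, stood apart from the other 7, which lay between 0 and 2.29 CPM, and the same well read 7.03 CPM for Mmp14 against 61.1 to 91.3 CPM in the other 7. Low levels were also seen at 72 h with P3C (median 0.816 CPM), TNFa+P3C (0), TNFa+PGE2 (0.101), TGFb (0.289) and low LPS with TGFb (0.0666), and each of these was called lower than untreated wells. The call for TGFb was lost when any 1 of 3 of its 4 wells was left out (-2.19 to -2.06).

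GMCSF raised Mmp13 as well, and so did some treatments with the cytokines IL4, IL10 and IL13. GMCSF wells were between 5.79 and 94.1 CPM (median 45.7, n = 8) at 24 h and between 60.4 and 187 CPM (median 96.8, n = 7) at 72 h, the latter with no overlap with untreated wells (log2 difference 3.82, SE 0.47, limma adjusted p = 3e-12). IL4, IL10 and IL13 together gave between 53.7 and 195 CPM (median 78.2, n = 6) at 72 h (log2 difference 3.65, SE 0.50, limma adjusted p = 3.7e-10). IL4 alone at 72 h read 53.5, 23.4 and 46.5 CPM (n = 3) and was called. That call was lost when the well at 53.5 or the well at 46.5 CPM was left out (2.17 and 2.27). IL13 alone gave between 4.8 and 30.9 CPM (median 11.9, n = 6) and IL10 alone between 0 and 12.3 CPM (median 8.21, n = 6). Every well of the mix lay above every IL13 and every IL10 well. The highest Mmp13 of all 98 culture groups was in low LPS with IL4, IL10 and IL13 at 72 h. The 5 wells of this group read 417, 655, 205, 273 and 278 CPM. Low LPS alone read between 0 and 15.9 CPM (median 5.59, n = 11), so that the groups did not overlap (log2 difference 5.84, SE 0.60, limma adjusted p = 2.8e-18). Over the 19 comparisons of LPS plus another agent with LPS alone, 24 of 171 member tests were called (15 higher and 9 lower), where 1.16% of all genes were (0.539% higher and 0.622% lower).

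**Figure D2:**
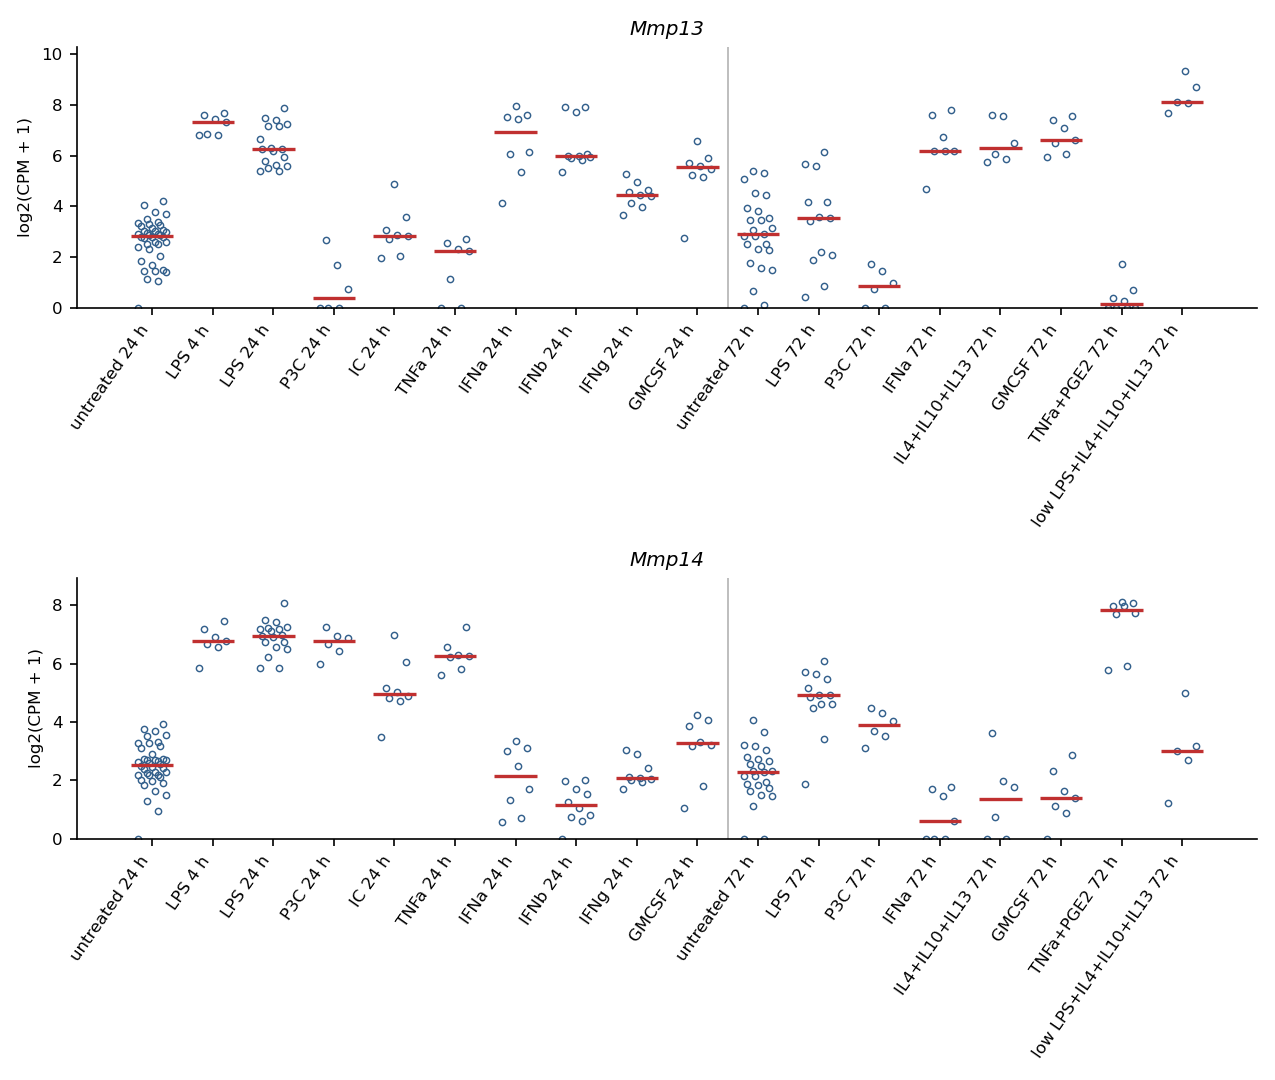
Mmp13 (top) and Mmp14 (bottom) in single wells as log2(CPM + 1), with 1 circle per well and a red line at the median of each condition; wells of 4 and 24 h are left of the grey line and wells of 72 h right of it. LPS raised both genes. The interferons, GMCSF and the mix of IL4, IL10 and IL13 raised Mmp13. P3C and TNFa raised Mmp14 at 24 h, while the Mmp13 medians there lay below that of untreated wells.

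Mmp8 is the collagenase first described in neutrophils. Untreated wells were between 0 and 32.6 CPM (median 4.79, n = 40) at 24 h and between 0 and 149 CPM (median 7.42, n = 25) at 72 h. GMCSF raised it at both times, to between 25.3 and 207 CPM (median 47.8, n = 8) at 24 h (log2 difference 2.97, SE 0.54, limma adjusted p = 2.1e-05) and between 17.6 and 117 CPM (median 62.7, n = 7) at 72 h (log2 difference 3.07, SE 0.60, limma adjusted p = 4.6e-05), with every GMCSF well above the untreated median. High density lipoprotein (HDL) for 24 h gave between 15.1 and 57.4 CPM (median 33.9, n = 8) (log2 difference 2.31, SE 0.54, limma adjusted p = 0.0078). Under GMCSF the summed level of 8 neutrophil markers was low, with medians of 0.677 and 1.45 CPM against 1.53 and 1.33 CPM in untreated wells, and S100a9, Ly6g, Ltf, Retnlg and Elane were at a median of 0 CPM.

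PGE2 raised Mmp8 when it was combined with P3C. P3C alone at 72 h was between 0 and 9.75 CPM (median 4.72, n = 6) and P3C with PGE2 was between 15.9 and 441 CPM (median 91.7, n = 7), with no overlap (log2 difference 4.38, SE 0.78, limma adjusted p = 5.8e-06). The triple mix of TNFa, P3C and PGE2 was between 26.4 and 149 CPM (median 55, n = 7), again with every well above those of TNFa and P3C (log2 difference 4.52, SE 0.75, limma adjusted p = 1.4e-06). PGE2 alone was between 0.195 and 43.6 CPM (median 6.7, n = 8) and was not called against untreated wells (log2 difference -0.28, SE 0.57, limma adjusted p = 0.87). Adding IFNb to the triple mix lowered Mmp8 to between 0 and 29.8 CPM (median 7.88, n = 7) (log2 difference -3.09, SE 0.75, limma adjusted p = 0.0028). Over the 7 comparisons among these mixes, 18 of 63 member tests were called (11 higher and 7 lower), where 4.02% of all genes were (1.92% higher and 2.1% lower). The summed neutrophil markers moved with Mmp8 here, to medians of 37.6 CPM (P3C with PGE2), 59.0 CPM (triple mix) and 32.9 CPM (TNFa with PGE2). Most of that sum was S100a8, at medians of 36.8 CPM in P3C with PGE2 and 30.7 CPM in TNFa with PGE2, while S100a9, Ly6g, Ltf, Retnlg and Elane were at a median of 0 CPM in all 3 mixes. The part of these markers in the Mmp8 result was not tested.

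Mmp8 fell under LPS at 24 h (between 0 and 10.5 CPM, median 1.04, n = 18, log2 difference -1.47, SE 0.40, limma adjusted p = 0.0014) and under IFNg at 24 and 72 h (-1.999 and -2.31). Low LPS for 72 h gave between 0 and 21.1 CPM (median 0.676, n = 11). The higher LPS dose at 72 h had wells between 0 and 214 CPM (median 2.63, n = 13), and it differed from low LPS (log2 difference 2.12, SE 0.58, limma adjusted p = 0.0088). This was the only 1 of 18 member tests between LPS doses that was called, where 2.58% of all genes were (0.348% higher and 2.23% lower). It was lost with the library pool in the model, at 1.79, and when only these 2 groups were fitted.

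Mmp2 is gelatinase A, which cuts denatured collagen and is activated at the cell surface by Mmp14 and Timp2. It was at 0 in 309 wells. By plate, its median in untreated wells at 24 h ran from 0 to 24.3 CPM. The summed level of 9 fibroblast and mural cell markers differed between the same plates, with medians from 4.13 to 537 CPM, and the plate highest in Mmp2 was also the highest in these markers. Dcn, Lum, Pdgfrb and Vtn of this list were at a median of 0 CPM, and the part of such cells in Mmp2 was not tested. In bulk samples, fewer cells of a type and less RNA per cell cannot be told apart.

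At 72 h, where untreated wells had Mmp2 at 0 in 19 of 25, it rose in TNFa with PGE2 (between 0 and 55 CPM, median 6.66, n = 8, log2 difference 2.56, SE 0.56, limma adjusted p = 0.00018), in low LPS with TGFb (between 0 and 22 CPM, median 11.8, n = 8, log2 difference 2.27, SE 0.56, limma adjusted p = 0.0013) and in TNFa with IFNg (between 0 and 27.3 CPM, median 4.68, n = 8, log2 difference 2.08, SE 0.56, limma adjusted p = 0.0033). In each of these groups at least 1 well was at 0, so the groups overlapped the untreated wells. The summed fibroblast and mural markers had medians of 24.5, 7.05 and 9.69 CPM in these groups and 17.4 CPM in untreated wells. TNFa with PGE2 was also above PGE2 alone, whose wells were between 0 and 0.576 CPM (median 0, n = 8) (log2 difference 2.62, SE 0.69, limma adjusted p = 0.0038). The falls at 24 h, under LPS (-1.19), low LPS (-1.68), IFNg (-1.46) and valproic acid (-1.83), were -0.70, -1.23, -1.46 and -0.17 with the plate in the model, where only that of IFNg was called.

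Mmp14 is a membrane-type metalloproteinase that cuts collagen at the cell surface and activates other members. It rose with the stimuli of bacterial and inflammatory signalling. LPS wells at 24 h were between 56.4 and 272 CPM (median 123, n = 18) against untreated wells between 0 and 14.3 CPM (median 4.75, n = 40), with no overlap (log2 difference 4.41, SE 0.28, limma adjusted p = 1.5e-46). P3C gave between 62 and 151 CPM (median 108, n = 6) (log2 difference 4.19, SE 0.43, limma adjusted p = 4.1e-19) and TNFa between 48.1 and 152 CPM (median 75.4, n = 7) (log2 difference 3.79, SE 0.40, limma adjusted p = 4.3e-17), also without overlap. IC gave between 10.1 and 127 CPM (median 30.1, n = 8), and 8 of 8 wells lay above the untreated median (log2 difference 2.65, SE 0.38, limma adjusted p = 4.7e-10). At 4 h, LPS wells were between 57.2 and 176 CPM (median 108, n = 7), above all CCL7 wells (log2 difference 4.42, SE 0.52, limma adjusted p = 1.5e-14) and all CCL2 wells (log2 difference 3.69, SE 0.52, limma adjusted p = 2.2e-10). Over the 5 comparisons between 4 h conditions, 11 of 45 member tests were called (6 higher and 5 lower), where 9.72% of all genes were (2.53% higher and 7.19% lower).

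The rise of Mmp14 was smaller at 72 h. LPS wells were then between 2.68 and 67.3 CPM (median 29.3, n = 13) (log2 difference 2.57, SE 0.33, limma adjusted p = 2.5e-12) and P3C wells between 7.61 and 21.4 CPM (median 13.8, n = 6) (log2 difference 1.67, SE 0.44, limma adjusted p = 0.0034). TNFa alone at 72 h gave between 4.05 and 16.7 CPM (median 7.59, n = 3) and was called only with the plate in the model (1.00 without and 1.56 with it). The differences between the times were -1.84 for LPS, -2.52 for P3C, -2.79 for TNFa and -1.94 for IC, each called. That of IC was -1.56 and not called with the plate in the model.

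The highest Mmp14 of all conditions was in TNFa with PGE2 at 72 h, between 53.7 and 278 CPM (median 231, n = 8). PGE2 alone was between 0.616 and 20.4 CPM (median 8.52, n = 8), with no overlap (log2 difference 4.38, SE 0.49, limma adjusted p = 1e-15). TNFa added to IFNg gave between 7.03 and 91.3 CPM (median 75.1, n = 8) against between 0 and 7.41 CPM (median 2.54, n = 6) for IFNg alone (log2 difference 4.23, SE 0.53, limma adjusted p = 3.2e-12), opposite in sign to Mmp13 in the same wells. IL10 alone raised Mmp14 at 72 h (between 7.06 and 29.7 CPM, median 15.8, n = 6, log2 difference 1.75, SE 0.44, limma adjusted p = 0.0069). IFNb at 24 h (-1.33), IFNa at 72 h (-1.40) and IL4 at 24 h (-1.22) lowered it, and the last was -0.88 with the plate in the model and not called. IL4, IL10 and IL13 added to low LPS lowered Mmp14 from between 12.7 and 76.1 CPM (median 47, n = 11) to 5.49, 7.05, 7.99, 1.35 and 30.9 CPM in the 5 wells (log2 difference -2.20, SE 0.53, limma adjusted p = 0.0015). These are the wells in which Mmp13 was highest. ATP added to LPS at 4 h lowered Mmp14 to between 12.2 and 56.2 CPM (median 24.6, n = 6), below every well of LPS alone (log2 difference -2.03, SE 0.54, limma adjusted p = 0.015).

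Mmp12 is macrophage elastase. Its level in untreated wells at 24 h depended on the plate, with medians of 1083, 1288, 334, 443, 216 and 150 CPM on the 6 plates, and the wells of the first 2 plates did not overlap those of the others. LPS for 24 h lowered it on each plate: the LPS wells had medians of 320, 564, 74.0, 187, 110 and 48.0 CPM on plates 1 to 6, each below the untreated median of that plate. The difference was -1.12 without and -1.61 with the plate in the model, called in both. P3C lowered it too (between 28.2 and 169.5 CPM, median 55.7, n = 6, log2 difference -2.71, SE 0.53, limma adjusted p = 8.8e-06), and so did IC (between 54.3 and 133 CPM, median 64.2, n = 8, log2 difference -2.41, SE 0.47, limma adjusted p = 1.4e-05). With the plate in the model these were -2.02 and -1.81. In the direct comparison of LPS with P3C at 24 h, Mmp12 was not called.

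IL4 wells were called higher in Mmp12 at 24 h, between 353 and 2082 CPM (median 1347, n = 11) (log2 difference 1.55, SE 0.41, limma adjusted p = 0.0082). Of the 11 IL4 wells, 9 were on the 2 plates with high untreated levels. Within those plates IL4 medians were 1296 and 1879 CPM against 1083 and 1288 CPM untreated, and on the remaining plate 364 against 334 CPM. With the plate in the model the difference was 0.11 and was not called. GMCSF at 24 h showed the opposite: it was not called without the plate (log2 difference 1.32, SE 0.47, limma adjusted p = 0.1) and was called with it, at 1.92. Its wells had medians of 1212 and 728 CPM on the 2 plates where untreated wells had 443 and 150 CPM.

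**Figure D3:**
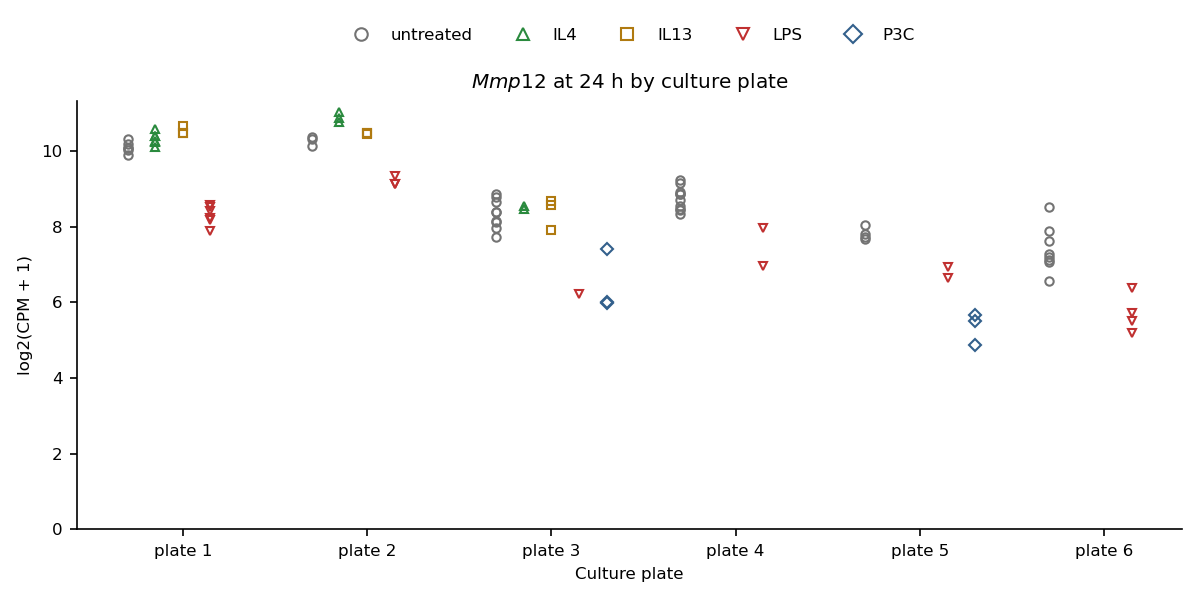
Mmp12 as log2(CPM + 1) in single wells at 24 h, by culture plate (x axis), for untreated wells and wells with IL4, IL13, LPS or P3C; 1 symbol per well. Untreated wells of plates 1 and 2 lie above those of plates 3 to 6, IL4 and IL13 wells follow the same order of plates, and LPS and P3C wells lie below the untreated median of their plate.

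Mmp12 also fell at 72 h under several stimuli. LPS wells were between 1.84 and 179.9 CPM (median 31.8, n = 13) against between 179 and 961 CPM (median 312, n = 25) untreated (log2 difference -3.78, SE 0.41, limma adjusted p = 7.6e-17), and all 13 lay below the untreated median. Wells of P3C (-4.18), low LPS (-4.09), TGFb (-3.54), IFNb (-3.16) and the mitochondrial toxin MPP (-2.73) did not overlap the untreated wells, and those of IFNg (-2.11) did. Low LPS with IFNg had the lowest level of the panel, between 0 and 10.6 CPM (median 5.66, n = 7) (log2 difference -6.17, SE 0.52, limma adjusted p = 2.3e-27). The LPS difference at 72 h was larger than that at 24 h (log2 difference -2.66, SE 0.54, limma adjusted p = 8.8e-05). Such a difference between times was also called for low LPS, MPP and TGFb, that of TGFb only without the plate in the model. It was not called for P3C, IC, IFNb or IFNg.

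Mmp12 rose at 72 h with GMCSF (between 1119.9 and 2597 CPM, median 1273, n = 7, log2 difference 1.91, SE 0.52, limma adjusted p = 0.0085) and with IL4, IL10 and IL13 together (between 1174 and 1560.3 CPM, median 1268, n = 6, log2 difference 1.82, SE 0.55, limma adjusted p = 0.017), both with no overlap with untreated wells. The same 3 cytokines on low LPS gave 939, 1444, 713, 46.3 and 87.0 CPM in the 5 wells against between 1.7 and 96.3 CPM (median 19.4, n = 11) for low LPS alone (log2 difference 3.93, SE 0.65, limma adjusted p = 4.3e-07). The 3 wells of 1 plate lay above all wells of low LPS, and the other 2, on a second plate, lay within their range. IL4 alone at 72 h, without LPS, read 1184, 1402 and 1228 CPM (n = 3). These wells also lay above all untreated wells of that time, but the difference was not called.

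Timp1, a secreted inhibitor that is induced in many tissues by inflammation, was low in most conditions and at 0 in 216 wells. LPS for 24 h raised it to between 0.902 and 27.9 CPM (median 8.06, n = 18), with 17 of 18 wells above the untreated median (log2 difference 1.67, SE 0.35, limma adjusted p = 1.9e-05). LPS alone at 4 h was between 0 and 6.17 CPM (median 1.66, n = 7), and norepinephrine with LPS was between 11.5 and 59.1 CPM (median 40.1, n = 8), with no overlap (log2 difference 3.69, SE 0.64, limma adjusted p = 5e-06). Norepinephrine alone at 4 h was between 0 and 16.4 CPM (median 3.06, n = 7). IL4, IL10 and IL13 on low LPS gave 26.01, 21.3, 22.3, 41.8 and 66.9 CPM in the 5 wells, above all wells of low LPS (between 0 and 12.4 CPM, median 0.732, n = 11, log2 difference 3.59, SE 0.67, limma adjusted p = 9.9e-06). IL10 alone on low LPS gave 16.5, 10.5, 8.47, 11.3 and 46.4 CPM (log2 difference 2.54, SE 0.67, limma adjusted p = 0.014), and 1 of the low LPS wells, at 12.4 CPM, lay within this range. Without the well at 46.4 CPM the difference was 2.16 and was not called. IFNb added to TNFa, P3C and PGE2 raised Timp1 from between 0 and 10.7 CPM (median 1.68, n = 7) to between 11 and 135 CPM (median 38.1, n = 7), with no overlap (log2 difference 3.90, SE 0.66, limma adjusted p = 8.2e-07), in the wells where Mmp8 fell. Timp1 was called higher in 18 comparisons and lower in none.

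Timp2 is an inhibitor that most cells make without stimulation. It fell under LPS, where Timp1 rose. LPS wells at 24 h were between 85.7 and 290.4 CPM (median 190.0, n = 18), and all 18 lay below all untreated wells (log2 difference -2.34, SE 0.13, limma adjusted p = 1.6e-59). P3C gave the lowest median of the panel, between 16.9 and 161 CPM (median 85.1, n = 6) (log2 difference -3.56, SE 0.20, limma adjusted p = 3.7e-57), and IC between 104 and 320.0 CPM (median 288, n = 8) (log2 difference -1.81, SE 0.17, limma adjusted p = 1.9e-21). The interferons lowered it at 24 h by 1.08 (IFNa), 1.14 (IFNb) and 1.52 (IFNg) on the log2 scale. At 72 h P3C wells had returned part of the way, at between 255 and 364 CPM (median 339, n = 6), and the difference between the times was 2.04, limma adjusted p = 9.9e-10. TNFa with IFNg was among the lowest at 72 h (between 54.5 and 303 CPM, median 154, n = 8, log2 difference -2.52, SE 0.18, limma adjusted p = 2.6e-36).

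Timp2 was higher in some treatments with IL4, IL10 and IL13. IL13 alone (1.05) and the mix of IL4, IL10 and IL13 (1.29) raised it at 72 h. On low LPS (between 225 and 473 CPM, median 368, n = 11), IL4 brought it to between 668 and 2204 CPM (median 1819.9, n = 5) (log2 difference 2.13, SE 0.24, limma adjusted p = 1.1e-14) and the 3 cytokines to 1509, 1455, 1315, 2063 and 3306 CPM (log2 difference 2.37, SE 0.24, limma adjusted p = 1.9e-18), both without overlap. TGFb (1.23), IL10 (1.21) and IL13 (1.04) also raised it on low LPS. The call for IL13 was lost when 1 of 3 of its 5 wells was left out (0.92 to 0.98).

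**Figure D4:**
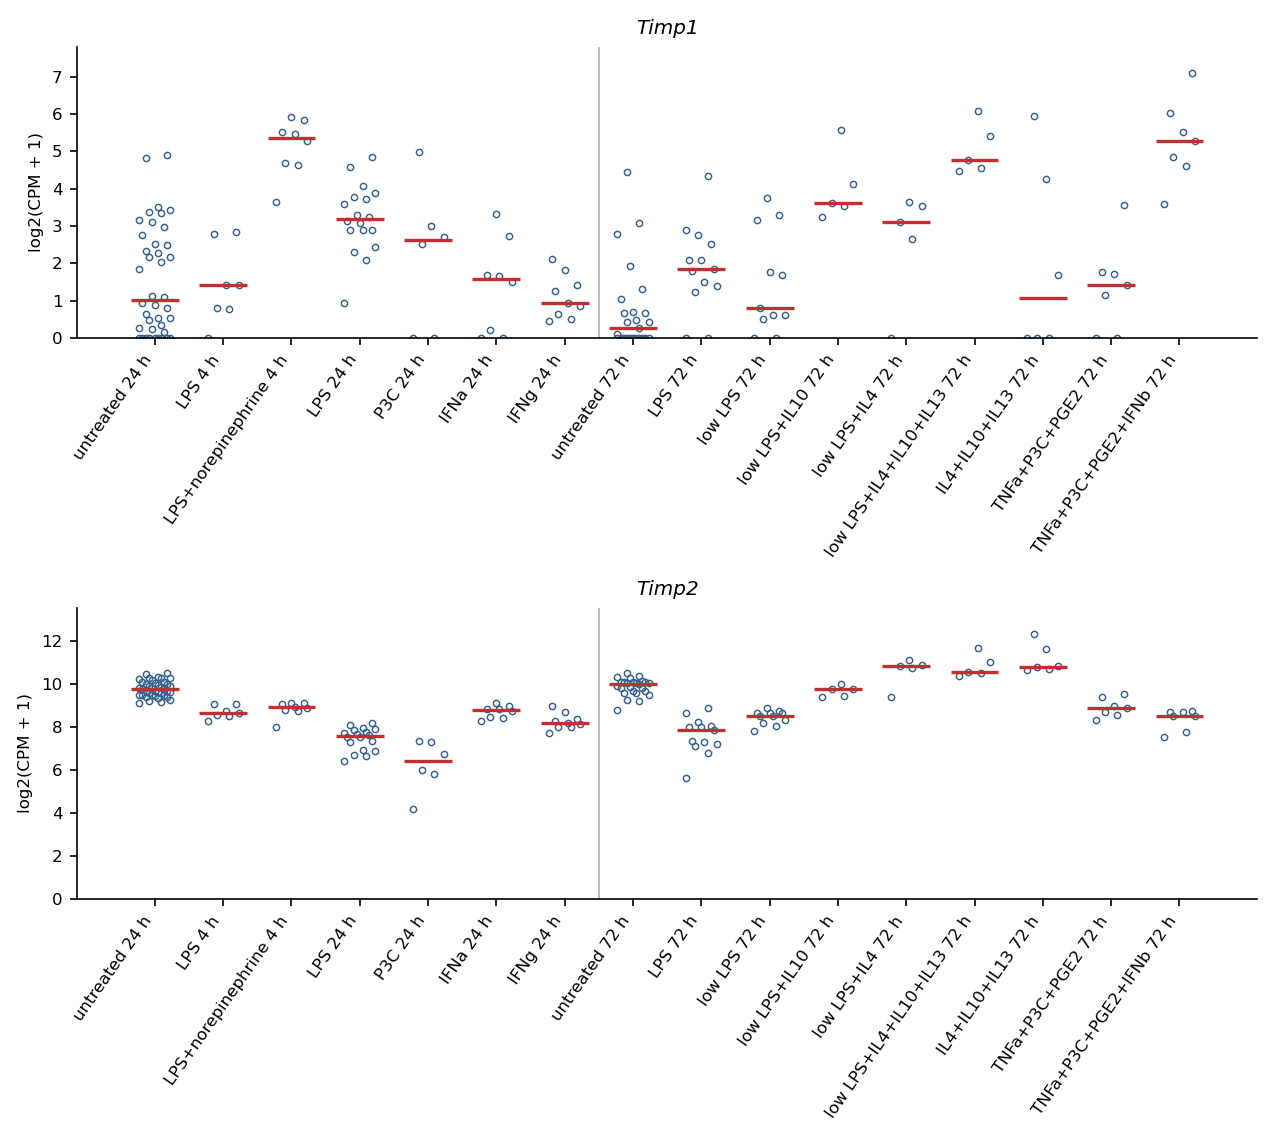
Timp1 (top) and Timp2 (bottom) in single wells as log2(CPM + 1), with 1 circle per well and a red line at the median of each condition; wells of 4 and 24 h are left of the grey line and wells of 72 h right of it. Timp1 stands highest with norepinephrine on LPS at 4 h, with IL4, IL10 and IL13 on low LPS and with IFNb on the TNFa, P3C and PGE2 mix, and Timp2 stands lowest with P3C and LPS at 24 h.

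Adam8, a sheddase of leukocytes and microglia, was detected in all wells. P3C at 24 h lowered it to between 177 and 353 CPM (median 214, n = 6) (log2 difference -1.77, SE 0.19, limma adjusted p = 3.5e-18). LPS at 4 h gave between 275 and 409 CPM (median 335, n = 7), below all CCL7 wells, which were between 552 and 1273 CPM (median 847, n = 7) (log2 difference -1.28, SE 0.23, limma adjusted p = 7.7e-07). TGFb for 72 h lowered it by 1.14. Norepinephrine on LPS raised it at 4 h against LPS alone (log2 difference 1.00, SE 0.22, limma adjusted p = 0.0011). Low LPS with the 3 cytokines was between 1769.8 and 1938 CPM (median 1893, n = 5) and was called higher than untreated wells (log2 difference 1.05, SE 0.21, limma adjusted p = 4.2e-05). Against low LPS alone the difference was 0.85 and was not called.

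Adamts1, which cuts the proteoglycans aggrecan and versican, fell under LPS, P3C, IC and IFNg at 24 h. P3C wells at 24 h were between 0 and 3.66 CPM (median 1.8, n = 6), below all untreated wells (log2 difference -3.83, SE 0.50, limma adjusted p = 4.5e-12), and LPS wells between 0 and 22 CPM (median 6.88, n = 18), all 18 below the untreated median (log2 difference -2.40, SE 0.32, limma adjusted p = 6.8e-12). IFNg lowered it at 24 h (-2.02) and 72 h (-1.97). P3C at 72 h was between 14.4 and 36.9 CPM (median 22.7, n = 6) and was not called against untreated wells of that time, so that its difference between the times was 4.65, limma adjusted p = 8.3e-08. PGE2 added to P3C brought Adamts1 to between 0 and 3.55 CPM (median 0.881, n = 7), with no overlap with P3C alone (log2 difference -3.82, SE 0.63, limma adjusted p = 6.8e-07), in the wells where Mmp8 rose.

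At 4 h, norepinephrine alone (between 0 and 12.8 CPM, median 3.56, n = 7, log2 difference -3.24, SE 0.47, limma adjusted p = 8.6e-09) and nicotine alone (between 0 and 22.1 CPM, median 8.88, n = 8, log2 difference -2.01, SE 0.44, limma adjusted p = 0.00099) had low Adamts1 against untreated wells of 24 h. Wells of CCL7 for 4 h were between 0 and 55.6 CPM (median 20.5, n = 7) and were not called (log2 difference -1.03, SE 0.47, limma adjusted p = 0.45). At 72 h Adamts1 rose with oleic acid (OA, between 32 and 60.03 CPM, median 45.2, n = 7, log2 difference 1.77, SE 0.49, limma adjusted p = 0.033), linoleic acid (LiA, 1.64) and GABA (1.58). IL4, IL10 and IL13 on low LPS gave 50.9, 45.0, 36.5, 103 and 53.6 CPM, above all wells of low LPS (between 1.06 and 22 CPM, median 6.9, n = 11, log2 difference 2.89, SE 0.62, limma adjusted p = 0.00022).

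Some members varied together across the panel and others in opposite directions. Over the means of the 97 conditions with at least 2 wells, Pearson's r was -0.17 between the neighbouring genes Mmp13 and Mmp8, 0.30 between Mmp13 and Mmp12, and 0.34 between Mmp8 and Mmp12, and it was 0.01 between Mmp13 and Mmp14. It was higher between Mmp12 and Adamts1 (0.70), Timp2 and Adamts1 (0.65), Mmp12 and Timp2 (0.54) and Timp2 and Adam8 (0.50). Mmp14 ran opposite to Timp2 (-0.68), Adamts1 (-0.66), Mmp12 (-0.61) and Adam8 (-0.51). These r are descriptions, since conditions share plates and untreated wells. The genes with the most similar pattern were Sod2 (r = 0.92), Gpr84 (0.89) and Fpr1 (0.89) for Mmp14. For Mmp12 they were Emp1 (0.89), Itgax (0.89) and Atp6v0d2 (0.87), and for Timp2 Gusb (0.88), Gas6 (0.88) and Igf1 (0.88). Those of Mmp2 were Ctgf (0.84), Col5a1 (0.84) and Prss23 (0.83), and those of Adamts1 were Atp6v0d2 (0.83), Nrcam (0.83) and Amz1 (0.81). Likeness was weaker for Mmp13 (Scimp 0.73, Nt5c3 0.63, Zcchc2 0.62), Mmp8 (Pygl 0.69, Pgm2l1 0.66, Alox5 0.65), Adam8 (Gm20659 0.67, Rnh1 0.67, Mocos 0.66) and Timp1 (Il1rn 0.63, Slfn4 0.63, Pdpn 0.60).

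Other genes of the same pathways were taken as lists of 18 further MMPs, 5 inhibitors, 11 ADAMs, 12 ADAMTSs, 7 genes of the plasminogen activator system and 8 activators and regulators. With LPS at 24 h, 2 of the 8 MMPs tested rose and 1 fell, and of 6 plasminogen genes 2 rose and 2 fell, where 16.2% of all genes were called. The largest were Serpinb2, a plasminogen activator inhibitor, at a median of 10.4 CPM against 0 untreated (3.40), and Lrp1, a receptor that takes up proteases and their inhibitors, at 27.5 against 209.8 CPM (-2.74). Rhbdf2, a partner of the sheddase Adam17, rose from 42.3 to 141.03 CPM (1.76), and the membrane-type Mmp25 rose from 0 to 3.05 CPM (1.74). At 4 h, against CCL7, the aggrecanase Adamts4 was at 189 against 2.06 CPM (5.97) while Adamts1 was not called. Of the 6 plasminogen genes 3 rose there and none fell, where 18.8% of all genes were called (5.31% higher and 13.5% lower). The gelatinase Mmp9 was at 76.1 against 1.75 CPM with P3C at 24 h (5.02) and at 280.5 against 0.540 CPM in TNFa with PGE2 at 72 h (7.32), the wells in which Mmp14 had its highest median. All values in parentheses are log2 differences called at the same threshold.

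In mice given LPS, Mmp8, Mmp14, Adam8 and Adamts1 rose, and Mmp13 was higher from near 0. Of the 9 members, 6 passed the filter of 5 CPM in at least 4 of the 8 mice. Adam8 and Adamts1 passed it only through the LPS mice, in which they were high, so they had to differ and their calls lend no support. With a filter on all mice they were not tested, and 2 members, Mmp8 and Mmp14, were called. Under the first filter 8.27% of 9012 genes were called (5.26% higher and 3.01% lower). Mmp14 read 21.9, 17.7, 27.5 and 23.1 CPM in the 4 LPS mice and 13.1, 8.61, 9.505 and 8.39 CPM in the 4 PBS mice (log2 difference 1.11, SE 0.19, limma adjusted p = 0.0023). Adamts1 read 12.1, 15.6, 7.78 and 13.4 CPM against 3.14, 1.44, 2.77 and 4.20 CPM (log2 difference 1.78, SE 0.26, limma adjusted p = 0.0009). In neither gene did the groups overlap, which for Adamts1 follows from how it passed the filter. Its values were higher in mice at 4 h after LPS but lower in culture wells with LPS at 24 h. At 4 h its difference in LPS wells from untreated wells of 24 h was -1.04 and was not called.

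Adam8 read 6.43, 7.46, 13.9 and 6.61 CPM with LPS and 2.75, 1.44, 2.18 and 4.78 CPM with PBS (log2 difference 1.35, SE 0.30, limma adjusted p = 0.0095). The lack of overlap in Adam8 also follows from how it passed the filter. Mmp8 read 15.8, 30.7, 30.8 and 33.7 CPM with LPS and 12.2, 5.48, 16.03 and 6.52 CPM with PBS (log2 difference 1.44, SE 0.33, limma adjusted p = 0.013). In Mmp8, 1 LPS mouse and 1 PBS mouse overlapped, and the exact permutation test over the 70 splits gave p = 0.057. Mmp13 read 7.07, 12.7, 4.26 and 5.22 CPM with LPS and 0.392, 0.144, 0 and 0 CPM with PBS. It did not pass the filter, and without the filter the limma adjusted p was 0.00058 for a log2 difference of 2.79. The exact permutation test gave p = 0.029 for Mmp13 and Mmp14, which is the smallest that 4 against 4 mice allow. It gave the same p for Adam8 and Adamts1. There it lends no support, since genes that pass the filter only through all 4 LPS mice must separate the groups.

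Timp2 read 467, 444, 458 and 334 CPM with LPS and 474, 528, 547 and 450.1 CPM with PBS and was not called (log2 difference -0.24, SE 0.16, limma adjusted p = 0.32, 95% interval -0.60 to 0.12). Mmp2 was not called either (log2 difference -0.26, SE 0.35, limma adjusted p = 0.62, 95% interval -1.03 to 0.51). Without the LPS mouse with the lowest Mmp2, at 29.04 CPM, its difference was 0.024. Timp1 read 0.514, 0.910, 0.926 and 0 CPM with LPS and 0 in all 4 PBS mice, and Mmp12 lay between 0.233 and 2.56 CPM in all 8 mice. Marker genes of other cells and genes listed for the response to dissociation also differed between LPS and PBS mice. The sum of 8 neutrophil markers was 167 to 321 CPM with LPS and 79.9 to 157 CPM with PBS, and 2 of its 5 tested genes were called higher. The sum of 6 monocyte markers was 73.8 to 129 CPM against 30.8 to 68.3 CPM, and of its 5 tested genes 3 were called higher (Ly6c2, Plac8 and Chil3) and 1 lower. The lower one was Ccr2, the chemokine receptor that defines inflammatory monocytes, at a median of 1.80 CPM against 10.6 CPM (log2 difference -1.90, SE 0.25, limma adjusted p = 0.00048). With an LPS median under the filter of 5 CPM, Ccr2 may have passed it mainly through the PBS mice, and its call lends no support. The sum of 7 genes of the response to tissue dissociation was 1095 to 1442 CPM against 172 to 187 CPM, with 5 of 6 called higher. The part of these in the rises of Mmp8, Mmp13, Mmp14, Adam8 and Adamts1 was not tested. From the pathway lists, Adamts4 (8.53 against 0.0725 CPM, 3.10), the urokinase receptor Plaur (41.6 against 4.22 CPM, 2.97) and Rhbdf2 (53.2 against 12.6 CPM, 1.78) rose, and no gene of the 6 lists fell. The PBS medians of Adamts4 and Plaur were under the filter of 5 CPM. Both may have passed it mainly through the LPS mice, so their calls lend no support.

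With age, Mmp8, Mmp14 and Adam8 were higher. Of the 9 members, 5 passed the filter of 5 CPM in at least 11 of the 24 mice and 3 of these were called, all higher, at an adjusted p under 0.05 without a minimum fold, where 9.67% of 9632 genes were called (6.4% higher and 3.27% lower). Mmp14 was between 12 and 31.8 CPM (median 23, n = 13) at 22 months and between 10.7 and 22.3 CPM (median 14.6, n = 11) at 2 months (log2 difference 0.53, SE 0.13, limma adjusted p = 0.01). Adam8 was between 5.12 and 19.2 CPM (median 8.83, n = 13) and between 1.28 and 9.45 CPM (median 6.16, n = 11) (log2 difference 0.72, SE 0.22, limma adjusted p = 0.033). Mmp8 was between 26.9 and 278 CPM (median 84, n = 13) and between 17.1 and 90.9 CPM (median 35.2, n = 11) (log2 difference 1.17, SE 0.33, limma adjusted p = 0.025). For each of the 3 genes 11 of 13 old mice lay above the young median, and the groups overlapped. Permutation tests of these single genes gave p = 0.0023, 0.0082 and 0.0035 for Mmp14, Adam8 and Mmp8, with the mice permuted freely over both library series. The calls of Mmp8 and Adam8 were lost without the filter on low values, at limma adjusted p = 0.052 and 0.064, and also without the term for the library series, while Mmp14 was called in both.

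Both library series of the aging experiment gave the same direction for these 3 genes. The first series, which stood apart from the second over all genes, gave log2 differences of 0.38, 1.08 and 1.46 for Mmp14, Adam8 and Mmp8, and the second 0.60, 0.54 and 1.02. Only Mmp14 in the second series was called when the series were fitted alone. Neutrophil markers rose with age: their sum was 336 to 3731 CPM (median 1208) at 22 months and 157 to 1247 CPM (median 598) at 2 months, and 6 of 6 tested genes were called higher. Monocyte markers moved likewise, with medians of 250.2 and 110.9 CPM and 4 of 5 genes called higher. The 2 old mice with the highest neutrophil sums, 3731 and 3269 CPM, had Mmp8 at 209.4 and 157 CPM and the 2 highest Adam8 values, 19.2 and 17.7 CPM. The part of these cells in Mmp8 and Adam8 was not tested.

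Mmp2 (log2 difference 0.27, SE 0.11, limma adjusted p = 0.12) and Timp2 (log2 difference 0.18, SE 0.08, limma adjusted p = 0.14) were not called with age. Mmp12 did not pass the filter. It was between 2.61 and 11.7 CPM (median 5.43, n = 13) at 22 months and between 1.02 and 6.36 CPM (median 2.87, n = 11) at 2 months, with a permutation p of 0.016 alone, over both series, and a limma adjusted p of 0.12 without the filter. Adamts1 had medians of 2.71 and 3.3 CPM, and Mmp13 and Timp1 were at 0 in 10 of 13 old and 10 of 11 young mice each. Of the pathway lists, Mmp9 (34.95 against 13.6 CPM, 1.40), Rhbdf2 (20.6 against 9.68 CPM, 0.88) and Plaur (14.1 against 8.49 CPM, 0.53) rose with age, and none fell.

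**Figure D5:**
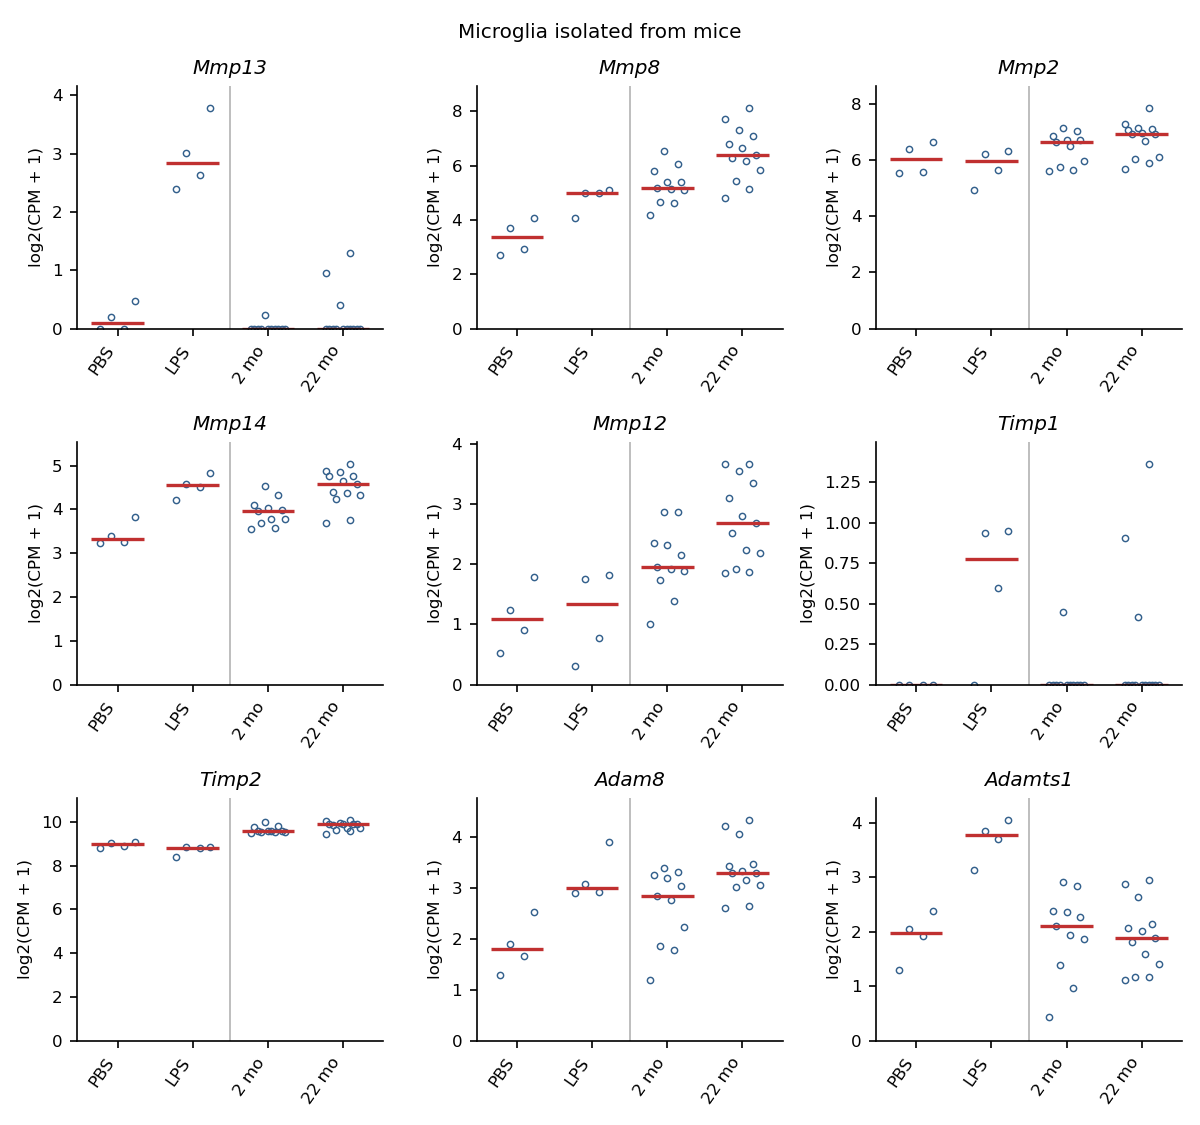
The 9 members in microglia of single mice as log2(CPM + 1), each panel with its own scale, 1 circle per mouse and a red line at the median; PBS and LPS mice (n = 4 each) are left of the grey line and mice of 2 and 22 months (n = 11 and 13) right of it. Mmp13, Mmp14, Adam8 and Adamts1 are higher in all LPS mice than in all PBS mice, and Mmp8, Mmp14 and Adam8 stand higher at 22 months with overlap.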

How the data were processed

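Mouse microglia were profiled by 3′-end RNA sequencing in culture wells and 32 mice. Per the study's methods, Salmon 0.7.1 assigned the reads to Ensembl mouse transcripts, which the authors summed to genes. The deposited values are CPM, not divided by transcript length, and whole reads could not be recovered from them, so no count test was run. The cultures and the mice were normalized in separate tables. The genome build is stated differently in the submitters' processing notes and in the methods, so the build given with positions is that of the RefSeq table used here.

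Groups were taken from the sample labels. Values were tested as log2(CPM + 1) with limma 3.58.1 in R 4.3.3, with 1 fit of all culture groups, so that groups share 1 estimate of the spread, and Benjamini-Hochberg adjustment over all tested genes within each comparison. Genes above 5 CPM in at least 4 cultures or LPS mice, or in 11 aging mice, were tested: 16942, 9012 and 9632 genes. The library series was a term of the aging fit. Single genes in mice were also tested by two-sided permutation of the mice, exactly over 70 splits for LPS and with 100000 permutations for age. The fit was tested on simulated data. The 9 members were always named, with the 12 main stimuli and any other called comparison, up to 5 in each direction. Members, lists and tests were chosen with earlier results of these data known. Values of some genes of these lists are not reported here. Other scripts used Python 3.11.15, numpy 2.4.6, pandas 2.3.3, scipy 1.17.1 and matplotlib 3.10.9. Pseudocount, filter, plate, library pool, scaling and left-out samples were varied, and adjustment over all comparisons together and leaving out shallow cultures were added after seeing the data.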

Additional observations from a re-analysis of the deposited data

Results flagged for a closer look

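In 22 of 218 pairs of a member and a group of 4 to 10 samples, 1 sample stood far from the others of its group. Chance flags about 1 in 20, and pairs of the same group share their samples, so they are not independent. For Mmp13, 1 GMCSF well at 24 h read 5.79 CPM against 35.2 to 94.1 CPM in the others. At 72 h, 1 well of TNFa with IFNg read 14.7 CPM (others 0 to 2.29 CPM) and 1 of TNFa with PGE2 read 2.36 CPM (others 0 to 0.628 CPM). For Mmp8, 1 GMCSF well at 24 h read 207 CPM (others 25.3 to 52.2 CPM), 1 MPP well at 72 h 16.3 CPM (others 0 to 1.55 CPM), and 1 LPS mouse 15.8 CPM (others 30.7 to 33.7 CPM). For Mmp2, 1 low LPS well at 24 h read 4.14 CPM (others 0 to 0.792 CPM) and 1 valproic acid well 5.20 CPM (others 0 to 0.335 CPM).

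For Mmp14, the far wells were LPS with minocycline at 24 h (21.5 CPM, others 68.2 to 115 CPM), low LPS with IL13 (7.82 CPM, others 28.9 to 42.2 CPM), TNFa with IFNg (7.03 CPM, others 61.1 to 91.3 CPM) and TNFa, P3C and PGE2 (88.3 CPM, others 40.4 to 55.8 CPM). For Mmp12 they were GMCSF at 72 h (2597 CPM, others 1119.9 to 1433 CPM), low LPS with IFNg (0 CPM, others 3.29 to 10.6 CPM), P3C with PGE2 (697 CPM, others 21.4 to 52.0 CPM) and TNFa with IFNg (187 CPM, others 5.28 to 17.1 CPM). The far well of TNFa with IFNg was the same well for Mmp13, Mmp14 and Mmp12. For the inhibitors they were Timp1 in low LPS with IL4 (0 CPM, others 5.22 to 11.5 CPM), Timp2 in IC at 24 h (104 CPM, others 226 to 320 CPM) and in P3C at 72 h (255 CPM, others 326 to 364 CPM), and Timp2 in 1 LPS mouse (334 CPM, others 444 to 467 CPM). For Adamts1 they were IFNg at 24 h (0 CPM, others 6.36 to 17.5 CPM) and nicotine at 4 h (0 CPM, others 5.91 to 22.1 CPM).

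The effect of a stimulus differed between 72 h and 24 h in 20 tests of the difference by limma, given here as the log2 effect at 72 h minus that at 24 h. They were -3.33 (LPS) and -3.87 (low LPS) for Mmp13, and 1.85 (LPS) for Mmp8. For Mmp14 they were -1.94 (IC), -1.84 (LPS), -2.52 (P3C) and -2.79 (TNFa). For Mmp12 they were -2.66 (LPS), -2.23 (low LPS), -3.71 (MPP) and -3.79 (TGFb). For Timp2 they were 1.83 (IC), 1.09 (IL13), 1.19 (low LPS), 2.04 (P3C) and 1.45 (TNFa). For Adam8 they were -1.16 (IFNg) and 1.07 (P3C), and for Adamts1 2.43 (low LPS) and 4.65 (P3C). With the plate in the model 17 of the 20 were called, and Mmp14 with IC, Mmp12 with TGFb and Adam8 with P3C were not. Time and plate cannot be told apart for most wells.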

How the results depend on the processing

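No paired analysis was possible because the replicate numbers were given in accession order and the labels pair no samples across groups. Of 304 called culture results, the call was lost in 19 with the plate in the model, in 48 with the library pool in the model, which also reversed 2 more, in 38 when each comparison was fitted with its own groups, in 28 without the 107 cultures under 2 M reads, in 15 with adjustment over all comparisons together and in 14 with median scaling. The last filter, of 20 cultures, changed none of them. Leaving out 1 well of a group lost the call at least once in 14 of 45 called results, and the calls at 72 h then ran from 119 to 123. The 1 call between LPS doses became 2 with the plate, 2 with no minimum fold, 0 with the pool and 0 with own groups. The 18 calls among the TNFa, P3C and PGE2 mixes became 10 with own groups, and the 8 calls between stimuli became 13 with the pool. The 2 calls between untreated times became 1 with pseudocount 5, 0 with the plate and 0 with the pool. The 4 calls in LPS mice became 2 with pseudocount 5 and 2 with a filter on all mice. The 3 calls with age became 1 without a filter, 1 with a minimum log2 fold change of 1, 1 without the library series term, 0 in the first series alone and 1 in the second alone. Of the 27 genes of like pattern, 11 remained over conditions without LPS and 12 when differences from untreated wells were used. Mmp2 reversed with the pool in the model, to 0.17 with valproic acid and 0.025 between untreated times, and in LPS mice it ran from -0.45 to 0.024 with 1 mouse left out. The cause of these changes was not tested. Low read numbers limit Mmp2 in the cultures, Timp1 in both the cultures and the mice, and Mmp13 in the mice.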

Other observations

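The gelatinase Mmp9, which is no member of the 9 but stands in the list of other MMPs, moved with the PGE2 mixes at 72 h. Its median was 1.75 CPM with PGE2 alone, 280.5 CPM with TNFa and PGE2 (log2 difference 6.90, limma adjusted p = 1.5e-24), and 328.7 CPM with TNFa, P3C and PGE2, against 33.8 CPM with TNFa and P3C (3.70, limma adjusted p = 6.2e-06). With IFNb added to that triple mix it was 1.31 CPM (-7.31, limma adjusted p = 1.5e-23). Mmp8 fell and Timp1 rose in the same comparison. This gene and these comparisons were chosen after their values were seen.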
